A study of Mus musculus with 4 samples.

Results

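The heat shock proteins and their DnaJ co-chaperones are the main protein-folding machinery of the cell. They were taken here as the genes whose symbols begin with Hsp and a family letter (a, b, d, e or h) and a number, with Hsp90, or with Dnaj, a family letter (a, b or c) and a number, and whose mean normalized count was over 50. Of 24421 genes in the table, 72 had such a symbol and 56 of these were over 50. Counts by class of chaperone below cover these symbols only and leave out relatives with other symbols. The measurements were bulk RNA-seq of hair follicle stem cells (HF-SCs), the slow-cycling cells of the follicle bulge, sorted by FACS from mouse back skin. There were 2 control libraries and 2 miR-205 induced libraries, all at postnatal day 44.

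Mice of both groups carried the Krt14-H2BGFP allele, which labels keratin 14 expressing cells with a nuclear GFP, and were matched for sex. The induced mice also carried a pTRE2-miR-205 transgene, driven through Krt14-rtTA and therefore in all keratin 14 expressing epithelium and not in HF-SCs alone. The labels give the strain as C57BL/6, whereas the methods describe transgene injection into FVB mice. The induced mice received doxycycline chow from postnatal day 42 for 2 days. Both the extraction protocol and the methods have the 2 groups fed doxycycline, whereas the treatment label of the controls reads untreated. The gate kept DAPI-negative, H2BGFP-high, Sca1-negative, α6-high and CD34-high cells after digestion of the skin with collagenase for 2 hours at 37 °C and then trypsin. Whether each library came from 1 mouse is not given in the sources used here.

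Each gene has 1 mean normalized count, the authors' mean over the 4 libraries, in which control and induced cells are combined. The values below therefore describe the chaperone genes in these HF-SCs as a whole, with no replicate error, and no difference between induced and control cells is given. In bulk samples, fewer cells of a type and less RNA per cell cannot be told apart.

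Chaperones bind proteins that are not yet folded or have lost their fold. HSP70 proteins bind and release short hydrophobic stretches in a cycle driven by ATP, DnaJ proteins deliver clients and start ATP hydrolysis, and nucleotide exchange factors such as the HSP110 proteins reset the cycle. HSP90 acts later, on kinases and steroid receptors that are nearly folded, small HSPs hold unfolding proteins without ATP, and HSP60 with HSP10 forms the folding chamber of the mitochondrion. Many of these genes are activated by heat shock factor 1, which binds arrays of inverted GAA units known as heat shock elements, and tissue dissociation at warm temperature is known to induce some of them.

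The sequences that bear on the design are those of the induced miRNA and of matches to its seed in the 3′UTRs of the chaperones. The mature miR-205-5p sequence from RefSeq (GRCm38.p6, chr1:193507503-193507524, minus strand) is shown with its seed, bases 2 to 8, in capitals.
miR-205-5p: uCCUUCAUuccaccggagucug
The complement of the seed, ATGAAGG, was searched on the sense strand of the longest annotated 3′UTR of each gene. Of the 55 chaperone genes with an annotated 3′UTR, 4 (7.27%) held it, compared with 12.4% of the 9534 genes over 50 with a 3′UTR and 10.7% of all 17733 genes with one. The median 3′UTR was 1083 bases long for the chaperone genes and 1243.5 bases for the genes over 50. The matches, in capitals with 8 bases on either side, are printed because they are all those found among the 56 genes.
Dnajc3: catgtgccATGAAGGcggcaagc
Dnajc5: tctgtgacATGAAGGccagcctg
Hspa13: ttaaaaccATGAAGGaaattgtc
Dnajc25, first match: taatagctATGAAGGatttcttt
Dnajc25, second match: ttcccaggATGAAGGaaagaaag

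All 5 matches lay in the last exon of their gene. On NCBIM37, the Dnajc3 match was at chr14:119380303-119380309 on the plus strand, in exon 12 of 12. The Dnajc5 match was at chr2:181288464-181288470 on the plus strand, in exon 5 of 5. The Hspa13 match was at chr16:75756204-75756210 on the minus strand, in exon 5 of 5. Dnajc25 held 2 matches in exon 4 of 4 on the plus strand, at chr4:59036700-59036706 and chr4:59038194-59038200. The Hspa13 match and both Dnajc25 matches were followed by an A, the base opposite position 1 of the miRNA. Dnajc3 encodes an ER co-chaperone that inhibits the kinase PERK, Dnajc5 the cysteine string protein of secretory vesicles, and Hspa13 a microsomal HSP70 relative. Their mean normalized counts were 1015, 1667 and 348, and that of Dnajc25 was 80.8. None of the 10 chaperone genes with the highest mean count held a match. A match is a feature of the letters and is no evidence that the miRNA acts on the transcript. Nor does a missing match show that the miRNA does not bind. The paper lists Hsp90b1 among actin cytoskeleton and adhesion mRNAs captured with miR-205 by CLEAR-CLIP, which joins a miRNA to the mRNA it binds. No match was found for Hsp90b1 here.

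The second set of sequences is the heat shock elements of the promoters, since these are the best known control elements of the family. An element was taken as 3 alternating inverted units of GAA and TTC with 2 bases between neighbours, which is the same search on both strands. In RefSeq promoters of GRCm38.p6, from 250 bases before to 50 bases after each gene start, 4 of the 46 chaperone genes with a promoter in the table (8.70%) held one. The share was 0.662% of all 27025 genes with a promoter and 0.589% of those over 50 in these HF-SCs. Counted by promoter, 6 of 62 (9.68%) held one, against 0.603% of all 32851 promoters. Each window is shown 5′ to 3′ on the strand of its gene with the element in capitals.
Hsph1: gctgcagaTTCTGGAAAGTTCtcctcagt
Hspd1: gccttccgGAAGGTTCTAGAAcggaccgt
Hspe1: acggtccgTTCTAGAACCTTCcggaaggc
Dnajb6: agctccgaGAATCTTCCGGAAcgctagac

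The Hsph1 window lay at chr5:149636280-149636308 on the minus strand, and its element began 15 bases after the gene start. Hspd1 and Hspe1, which encode HSP60 and HSP10, are transcribed away from each other from a shared promoter, so their windows are the 2 strands of 1 place, chr1:55088051-55088079. Counted from the gene start, the element began at position -139 of Hspd1, on the minus strand, and at position -89 of Hspe1, on the plus strand. A second element overlapped it in the window chr1:55088056-55088084. The Dnajb6 window lay at chr5:29735844-29735872 on the plus strand, with the element at positions -127 and -46 from its 2 annotated starts. The 4 genes with an element had a median mean count of 1506, between 626 for Hspe1 and 2337 for Hsph1, and the 42 without one had a median of 532, between 51.3 and 29991. Hspd1 and Hspe1 share their place but are counted as separate genes. Elements with an altered unit or outside these promoter bounds were not searched in this count, so the 42 are known to lack only this exact form. The 10 genes with no promoter in the table include Hspa8, Hsp90aa1 and Hsp90ab1 and were not searched.

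The marker genes and size factors of the libraries were read first. All 12 genes of the HF-SC list were over 50, with a median of 9274, from Krt5 at 146090.0 to Fgf18 at 134. They included Cd34 (14575), Krt15 (119883) and Itga6 (12910), and Ly6a, which encodes the Sca1 of the negative gate, was at 136. Cd34, Itga6 and Ly6a encode surface proteins of the gate, and Krt14 drives its GFP, so these genes are no independent check of identity. The list also holds genes such as Krt14 that are not limited to HF-SCs. Markers of other cell types were also present at mostly lower means. Of the fibroblast genes 5 of 6 were over 50, from Col1a1 at 5186 to Pdgfra at 39.5, as were all 4 suprabasal genes, from Krt10 at 7246 to Ivl at 116. The ranges overlapped. Nfatc1 (5639), Sox9 (5555), Lgr5 (4432), Lhx2 (3192), Tcf7l1 (590) and Fgf18 were below Krt10, and the other genes of the HF-SC list were above it. Of the myeloid genes 4 of 5 were over 50, from Cd74 at 2744 to Itgam at 35.6, of the melanocyte genes 2 of 4, from Dct at 498 to Mlana at 9.77, and of the endothelial genes 0 of 3, from Pecam1 at 36.4 to Kdr at 17.3. The share of each chaperone gene that came from such cells was not tested. The size factors that scale the counts of the libraries, read from the smallest means, were 0.716, 0.966, 1.18 and 1.24. These factors differed by up to 1.73 times, and which library had which factor is not known. Sequencing depth itself was not measured. Counting error (1 standard error) on the 4-library mean was at most 0.260% for Hspa8 and 8.25% for Dnajc15, and it covers sampling of reads only, not differences between mice.

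Chaperone genes were abundant in these cells. Their 56 means summed to 241077, or 1.84% of all normalized counts. The median of the 56 was 617, beside 378 for all genes over 50 and 117 for all genes above 0. Since the limit of 50 removes low genes, the fairer reading is against the genes over 50, among which the median chaperone gene stood at percentile 63.9. Of all 72 symbols, 77.8% passed the limit, beside 42.3% of all genes. Among the 100 genes with the highest mean counts 6 were chaperones, and 15 were among the highest 1000.

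**Figure D1:**
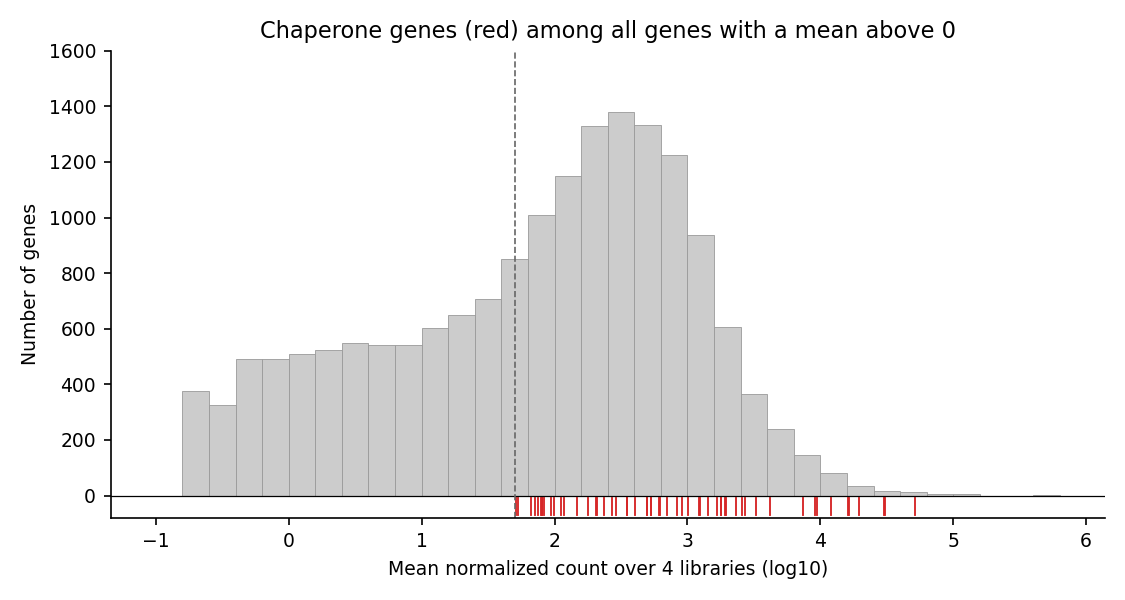
Number of genes by mean normalized count over 4 libraries (log10, grey bars, all genes with a mean above 0), with each of the 56 chaperone genes as a red line below the axis and the limit of 50 as a dashed line. The red lines run from 51.3 to 51819.9 and reach the far upper end of the distribution.

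The range within the family was wide. The highest mean count was 1011 times the lowest, 24 genes were over 1000 and 25 were under 500. The 5 highest genes, Hspa8, Hsp90ab1, Hspb1, Hsp90aa1 and Hspa1b, held 61.6% of the family's normalized counts and the 10 highest held 84.0%. A small group of cytosolic chaperones therefore made up most of the chaperone reads. The 10 highest also held the co-chaperones Dnajb1 and Dnaja1 and the endoplasmic reticulum chaperone Hspa5. The long tail beneath held both chaperones and co-chaperones. Just inside the limit were Dnajc15 at 51.3 and Dnajc24 at 53.1, and just outside it were Hspb6 at 48.8 and Dnajc28 at 24.0.

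**Figure D2:**
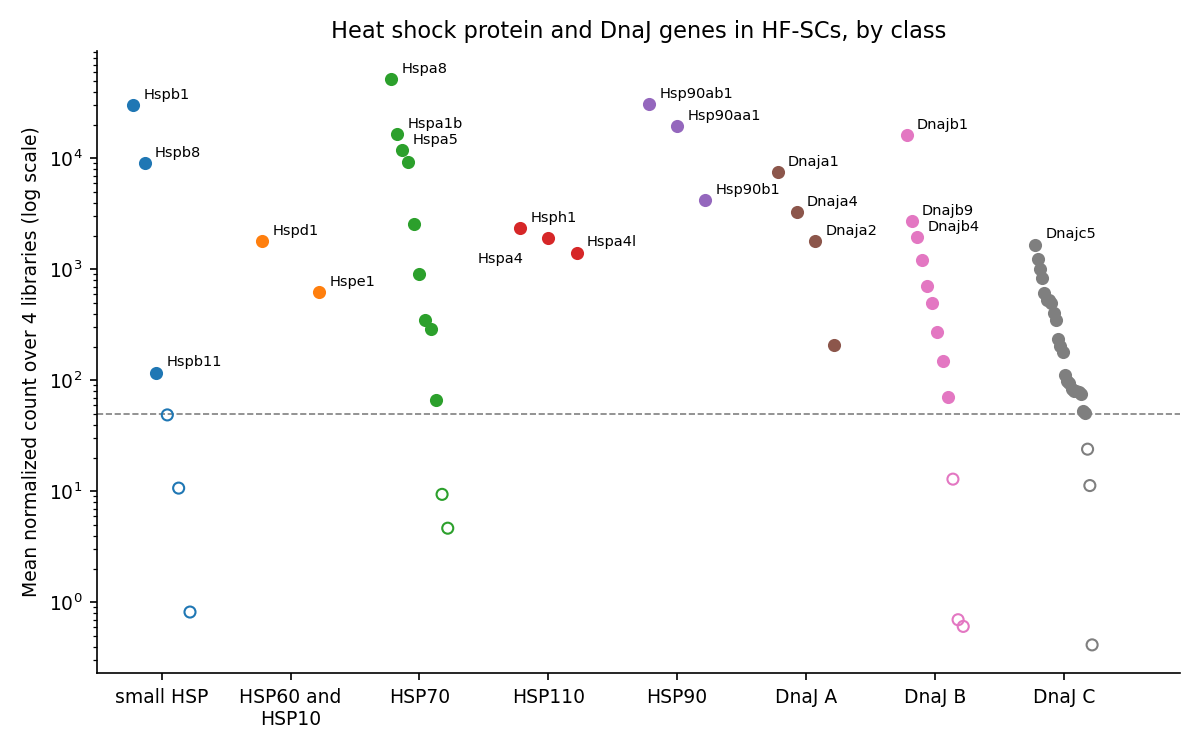
Mean normalized count over 4 libraries (log scale) of each gene, by class, with filled points for the 56 genes over 50 and open points for 11 genes above 0 but not over 50 (5 genes at 0 are not drawn). Hspa8 is the highest point at 51819.9, and the DnaJ C class fills the lower part of the plot, with Dnajc5 highest at 1667.

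Levels of different genes were compared as mean normalized count per kilobase of the longest annotated transcript, because a longer transcript yields more reads. That length was taken over all annotated transcripts of a gene, including any that do not code for protein. On this scale the small HSPs held the largest share of the family, 34.9%, followed by HSP70 (29.4%), HSP90 (18.2%) and DnaJ B (9.94%). Most of the small HSP share was the single gene Hspb1, at 32248 of the 37309 per kilobase summed over the class. By normalized count without length, HSP70 came first with 38.9%, then HSP90 with 22.6% and the small HSPs with 16.2%. The 2 orders differ because the scales differ: the longest Hspb1 transcript has 930 bases and that of Hspa8 has 3158. The longest protein-coding transcript of Hspa8 is shorter than 3158 bases. The longest-transcript scale therefore gives Hspa8, and with it the HSP70 class, a lower level than its coding transcript would. DnaJ A held 2.93% per kilobase, DnaJ C 2.45%, HSP60 and HSP10 together 1.297% and HSP110 0.984%. DnaJ C had the most genes, 23 of the 56, and one of the smallest shares.

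**Figure D3:**
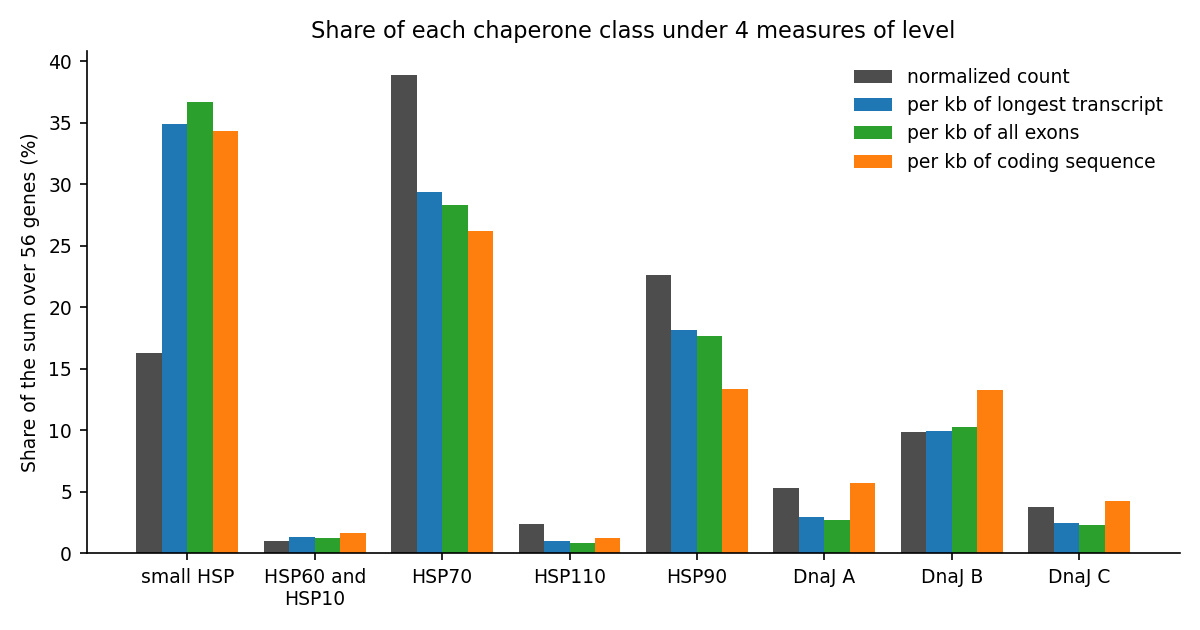
Share of the family's summed level (%) held by each class, as normalized counts (dark grey) and per kilobase of the longest transcript (blue), of all exons (green) and of coding sequence (orange). Small HSPs hold 34.9%, 36.7% and 34.3% under the 3 lengths but 16.2% by normalized count.

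Among the small HSPs, 3 of 8 genes were over 50. Hspb1, which binds unfolding proteins and is linked to the actin cytoskeleton in keratinocytes, had a mean count of 29991 and the highest level per kilobase of all 56 genes, 32248. The gene lies at chr5:136363789-136365433 on the plus strand (NCBIM37). Hspb8, a partner of Bag3 in the disposal of damaged proteins, had a mean count of 9049. Per kilobase Hspb1 was 6.47 times Hspb8, and 3.11 times with coding length. Hspb11, an intraflagellar transport subunit that carries the family name, had a mean count of 117. The members best known from heart and muscle were low, with Hspb6 at 48.8, Hspb2 at 10.7, Hspb7 at 0.819 and Hspb3 listed at 0. The testis member Hspb9 was also listed at 0.

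Among the HSP70 genes, 9 of 11 were over 50. Hspa8, the constitutive cytosolic HSP70, had the highest mean count of the family, 51819.9, which ranked 20 among all genes. It lies at chr9:40609067-40613283 on the plus strand. Per kilobase, Hspa8 (16409) was 1.35 times Hsp90ab1, 3.59 times Hspa5 and 19.4 times Hspa9. With coding length Hspa8 was 1.90 times Hsp90ab1. Hspa5, or BiP, the HSP70 of the endoplasmic reticulum, had a mean count of 11936, and Hspa9, or mortalin, that of the mitochondrion, 2579.7. The order of these 3 genes, taken as 1 for each compartment, was thus cytosol, endoplasmic reticulum, mitochondrion, and it was the same under all 3 lengths. They are not the 3 highest HSP70 genes, since Hspa1b had a higher mean count than Hspa5, and Hspa1a a higher one than Hspa9.

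Hspa1a and Hspa1b, the heat-inducible HSP70 pair, were both well over the limit. Their mean counts were 9361 for Hspa1a, at chr17:35106144-35109069, and 16490.4 for Hspa1b, at chr17:35093381-35096183, both on the minus strand. The pair are near-identical copies: of the 2777 stretches of 150 bases in the Hspa1a transcript, 1074 (38.7%) occurred unchanged in Hspa1b. How reads were divided between them is therefore uncertain. Their sum does not depend on that division, but it would be too low if reads that fit both copies were lost. Hspa8 per kilobase was 1.81 times that sum. Copies elsewhere in the genome covered 87.9% of the Hspa8 transcript, so this ratio is uncertain on both sides. The 8 immediate early genes examined, which cells switch on within minutes of a stimulus or of handling, were also high. Among them were Fos (49376), Jun (36481) and Egr1 (35524), with a median of 36003 and a range from Fosb at 89691 to Ier2 at 6542, and they held 2.31% of all normalized counts. Whether the digestion at 37 °C raised Hspa1a, Hspa1b or other members was not tested.

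The remaining HSP70 genes were lower. Hspa2, best known from spermatogenesis, had a mean count of 914, Hspa13 of 348, Hspa14, a ribosome-associated member, of 292 and the divergent Hspa12a of 66.4. Outside the limit were the testis gene Hspa1l at 9.40 and Hspa12b, known from endothelium, at 4.66.

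The HSP110 genes encode the main exchange factors of cytosolic HSP70, and all 3 were over 50. Hsph1 had a mean count of 2337, Hspa4 of 1906 and Hspa4l of 1416. Per kilobase Hsph1 (490.5) and Hspa4 (413) were close, and their order turned when the length of all exons was used. Hspa8 per kilobase was 33.5 times Hsph1.

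All 3 HSP90 genes with a matching symbol were over 50. Hsp90ab1, the constitutive cytosolic form at chr17:45704724-45710220 on the minus strand, had a mean count of 30622, and Hsp90aa1, the stress-inducible form, had 19640.3. Per kilobase Hsp90ab1 was 2.03 times Hsp90aa1. Unlike Hspa1a and Hspa1b, these 2 transcripts shared no stretch of 50 or more identical bases. Copies elsewhere in the genome, however, covered 84.5% of the Hsp90aa1 transcript and 6.83% of the Hsp90ab1 transcript. Reads lost to such copies could therefore affect the ratio of 2.03. Hsp90b1, the HSP90 of the endoplasmic reticulum known as GRP94, had a mean count of 4176, and Hspa5 was 3.52 times as high per kilobase.

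The mitochondrial folding chamber was present at lower levels. Hspd1 had a mean count of 1790.1 and Hspe1 of 626. Per kilobase of longest transcript they were nearly equal, with Hspd1 1.14 times Hspe1, but per kilobase of coding sequence the ratio was 0.509, so no order of this pair can be given.

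The DnaJ A class, closest to the bacterial DnaJ, had all 4 genes over 50. Dnaja1 led with a mean count of 7463, followed by Dnaja4 with 3280.4 and Dnaja2 with 1799, all co-chaperones of cytosolic HSP70. Dnaja3, the mitochondrial member, had 209, and Hspa9, its HSP70 partner, was 10.7 times as high per kilobase.

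Of the DnaJ B genes, 9 of 13 were over 50. Dnajb1, the heat-inducible HSP40 that works with HSP70 in refolding, had a mean count of 16129.5 and 68.0% of the counts of its class. It lies at chr8:86132074-86135801 on the plus strand. Per kilobase Dnajb1 (7127) was 5.37 times Dnaja1, a ratio that was 7.55 with all exons and 2.52 with coding length, and Hspa8 was 2.30 times Dnajb1. Dnajb9, a BiP co-chaperone of the endoplasmic reticulum, had 2727, and Hspa5 per kilobase was 3.12 times as high, or 2.32 times with all exons and 1.48 times with coding length. Dnajb4 had 1959.7, Dnajb6, which restrains protein aggregation, 1222, Dnajb2, 707, and Dnajb11, a second BiP co-chaperone, 498. The lowest over the limit were Dnajb5 at 148 and the ER membrane protein Dnajb14 at 71.1. The other 4 were Dnajb3 at 12.9, Dnajb7 at 0.698, Dnajb13 at 0.608 and Dnajb8, listed at 0. Several of these are best known from testis.

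Of the DnaJ C genes, which share only the J domain and have diverse tasks, 23 of 28 were over 50. Counts in this class were spread out, with Dnajc5 at the top holding 18.3% of them. Dnajc5 had a mean count of 1667, the endosomal protein Dnajc13 had 1238, and Dnajc3 had 1015. Next were Dnajc7, which binds both HSP70 and HSP90, with 835, Dnajc8, found with splicing factors, with 609, and Dnajc10, a disulfide reductase of the endoplasmic reticulum, with 534. The lowest 2 were Dnajc24, needed for the diphthamide modification of elongation factor 2, at 53.1, and Dnajc15, of the mitochondrial inner membrane, at 51.3. Below the limit were Dnajc28 at 24.0, Dnajc12 at 11.3 and Dnajc22 at 0.414, with Dnajc5b and Dnajc5g listed at 0.

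By compartment, the 30 genes of cytosol and nucleus held 89.6% of the family's level per kilobase. The 11 genes of the endoplasmic reticulum held 7.71%, with Hspa5 contributing most, and the 8 mitochondrial genes held 2.39%. A further 7 genes, 0.312%, were given no compartment. All 11 ER symbols and all 8 mitochondrial symbols passed the limit of 50. Of the symbols that did not pass, 11 had been given no compartment and 5 were of cytosol and nucleus, so the passing of a compartment's genes cannot be read as a difference between compartments.

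**Figure D4:**
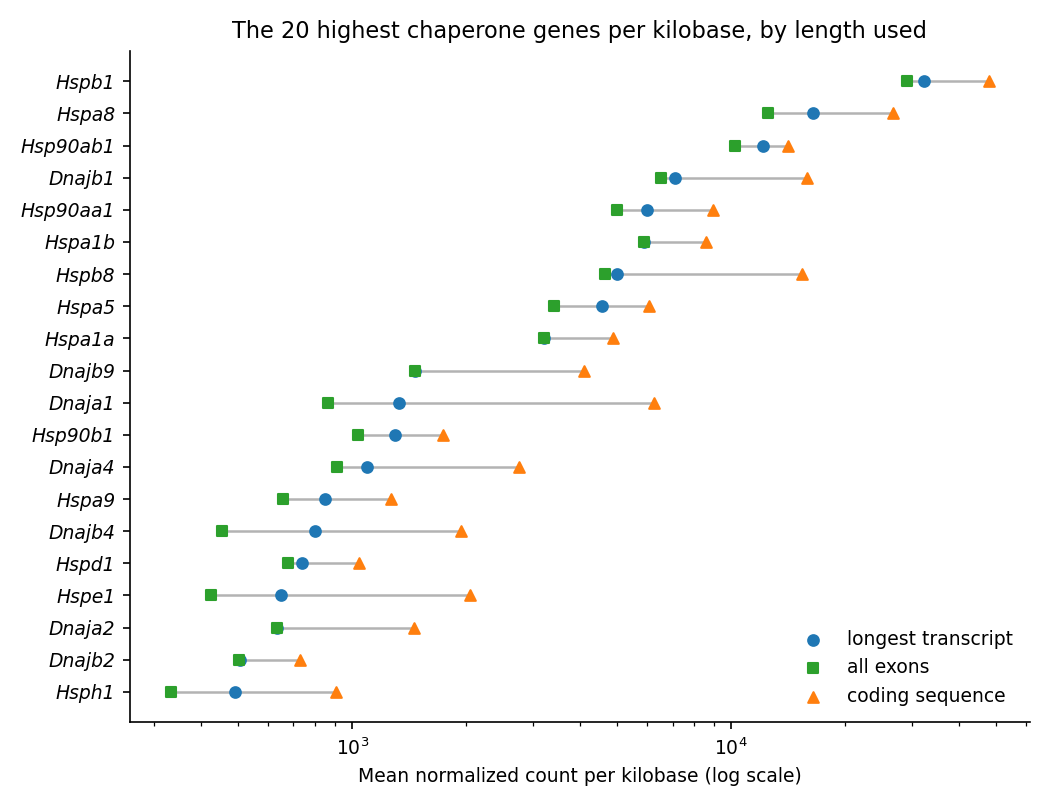
Mean normalized count per kilobase (log scale) of the 20 chaperone genes highest on the longest-transcript scale, with blue circles for the longest transcript, green squares for all exons and orange triangles for coding sequence. Hspb1 and Hspa8 stay first and second under each length, while genes with long UTRs such as Dnaja1 move further.

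Some levels are uncertain because of copies elsewhere in the genome. The longest protein-coding transcript of each gene was aligned to NCBIM37. Of these 56 transcripts, 41 had no other place with at least 150 bases at 98% identity, and 8 had such copies over 50% or more of their length. These were Hspa8 (3 places, 87.9% of the transcript), Hspb1 (86.0%), Hsp90aa1 (84.5%), Hspd1 (92.2%), Dnajb6 (84.9%), Hspe1 (69.3%), Hspa1a (74.0%) and Hspa1b (78.5%). How reads that fit several places were counted is not given in the sources used here, and reads of these genes could have been lost or divided.

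The partners of these chaperones were present as well. All 13 HSP90 co-chaperones were over 50, with a median of 512, and the highest was Unc45a, a myosin chaperone, at 3208. The 13 HSP70 exchange factors and other partners had a median of 625, from Bag3, which links HSP70 and Hspb8 to autophagy, at 4551 to Bag2 at 63.2. All 8 subunits of TRiC, the cytosolic chaperonin that folds actin and tubulin, were over 50, with a median of 2106 and a narrow span from Cct6a at 937 to Cct2 at 3069.8. The 6 prefoldin subunits, which deliver clients to TRiC, had a median of 272, from Pfdn5 at 1759 to Pfdn4 at 75.8.

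Of the heat shock factors, Hsf1, the main activator of the heat shock response, had a mean count of 595, Hsf2 of 149.97 and Hsf4 of 80.6. The 9 ER chaperones and folding enzymes had a median of 1709, from Calr, a calcium-binding lectin chaperone, at 5095 to Sdf2l1 at 70.9. The 4 mitochondrial chaperones and proteases had a median of 485, from Lonp1 at 924 to Hscb at 145. Gak, a J-domain gene outside the naming pattern that uncoats clathrin vesicles with Hspa8, was at 1088.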

How the data were processed

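RNA from 2 control and 2 miR-205 induced HF-SC libraries was sequenced as 150-base reads. Per the labels and methods, the authors aligned with HISAT2 2.1.0, converted with SAMtools 1.3.1, counted genes with HTSeq and compared groups with DESeq2. The annotation, the counting settings and the treatment of reads with several places were not given in the sources used here. Methods name the build as NCBI37/mm10 and the labels as mm10, and the table holds no coordinates. The mean normalized count is a signal deposited by the authors, their mean of size-factor-scaled counts over all 4 libraries. No column holds a value per library (0 such columns). The table's other 5 columns hold the authors' own comparison (log2 fold change, its standard error, statistic, p-value and adjusted p-value) and were not used, so no group comparison, test or replicate error is given.

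Ranks, shares and ratios were computed with Python 3.11.15, numpy 2.4.6, pandas 2.3.3 and scipy 1.17.1, with figures from matplotlib 3.10.9, and the steps were tested on simulated data. Lengths, 3′UTRs and places of genes are from GENCODE vM1 on NCBIM37, matched by symbol for 20769 genes (85.0%). Copies were found with blastn 2.17.0, and miRNA and promoter sequences are from RefSeq on GRCm38.p6. Size factors were read from the 1685 means under 1, all of which were whole reads within 1e-06. The members, classes and lists were chosen with earlier results of these data known. Named are all members of the HSP classes, the 6 highest and 2 lowest of each DnaJ class, the 2 genes on either side of the limit, genes with a seed match or element, and the highest and lowest gene of each other list, apart from withheld items, which are not reported. Cd34, Krt15, Itga6, Krt14, Nfatc1, Sox9, Lgr5, Lhx2, Tcf7l1, Fos, Jun, Egr1, Hsf2 and the genes below 50 were named after their values were seen. Alternatives were other limits, references, lengths, site types and elements.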

Additional observations from a re-analysis of the deposited data

How the results depend on the processing

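No paired analysis was possible because the table holds no value per library, and leaving out each replicate was not run for the same reason. The number of chaperone genes over the limit was 58, 45 and 41 at limits of 20, 100 and 200. The median percentile was 78.1 among genes above 0, 63.9 among genes over 50, 75.6 per kilobase, and 70.7 with all symbols above 0 included, an alternative chosen after seeing the data. The share of all counts was 1.84%, 1.64% without Hspa1a and Hspa1b, and 1.91% without the ribosomal RNA gene Rn45s in the total, which held 3.66% of counts and was also left out after seeing the data. A total without mitochondrially encoded genes gave no other value, since the table lists no gene with an mt- name. The largest class per kilobase, the small HSPs at 34.9%, held 36.7% with all exons and 34.3% with coding length. Genes with a seed match numbered 4, and 19 with bases 2 to 7 (34.5%, beside 38.9% of genes over 50), 2 with an A opposite base 1 (3.64%, beside 4.41%), and 2 in the shortest 3′UTR (3.64%, beside 6.42%). The transcripts used for the 3′UTR search were already protein-coding ones. With 2 units in place of 3, 13 genes held an element (28.3%, beside 13.5% of genes over 50). Of 36 ratios for 18 gene pairs under other lengths, 2 reversed: Hspd1 to Hspe1 at 0.509 with coding length and Hsph1 to Hspa4 at 0.962 with all exons. A further 29 moved by more than counting error and 5 did not. Each ratio uses the same mean counts under every length, so all these moves come from the annotated lengths alone. Counting error serves here only as a scale for their size.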
